A study of Bos taurus with 16 samples.

Results

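Gene expression in the lining of the cow's uterus on day 18 after insemination was set against that on day 10, library by library and gene by gene. The comparison takes 8 of the 16 libraries of the series, 4 from day 10 and 4 from day 18, by the day written in each sample's title. Each library is the poly(A) RNA of an endometrial biopsy from a virgin Holstein heifer at least 7 months old. All heifers, on both days, had their oestrous cycles synchronised with a GnRH analog, an intravaginal progesterone device and the prostaglandin analog cloprostenol, and were then inseminated at a fixed time with Holstein semen. They were assigned to days at random, per the labels, and no untreated or uninseminated group was analysed here. Whether a given heifer carried an embryo is not in the labels used here. A biopsy holds glands, surface epithelium, stroma, vessels and immune cells together, so fewer cells of a type and less RNA per cell cannot be told apart.

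After ovulation the bovine corpus luteum secretes progesterone, and the endometrium, through its glands, turns to secreting the fluid that feeds the free-living embryo. Around day 10 the tissue is under high progesterone in the mid luteal phase. By day 18 an elongated conceptus would be releasing interferon tau, which acts on the endometrium and protects the corpus luteum, while in its absence the endometrium moves towards the prostaglandin pulses that end the cycle. Genes are listed under Ensembl IDs, and 0 of the 27607 IDs could be paired with a symbol, so the lists for interferon response, steroid receptors and other pathways could not be applied. For the same reason the tissue label was not checked against cell type markers. Genes are therefore given by ID, 2 risen and 2 fallen, and nothing is said of what they do.

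Genes received 18959090 to 21757330 reads in each of the 8 libraries, and 16331 IDs passed the filter on low counts. Reads without a gene feature made up 27.6% to 30.7% of the counted reads in the day 10 libraries and 24.6%, 24.7%, 30.4% and 30.7% in day 18 replicates 2, 3, 1 and 4. Unmapped reads made up 7.89% ± 0.374 (SD, n = 4) on day 10 and 9.31% ± 1.31 on day 18, with the highest share, 11.0%, in day 18 replicate 2 (two-sided exact permutation test, p = 0.0571, adjusted over 8 library measures 0.152). The 95% Wilson interval of each of these shares was at most 0.0345 percentage points wide and covers counting error only. In every library the strand used held at least 98.28% of the stranded gene reads.

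The day 10 libraries lay close together and the day 18 libraries lay farther apart, a difference that did not pass its test after adjustment. Expression was put on a log2 scale of CPM, a gene's reads as a share of the library, scaled, and each library was compared with the mean of the other 3 of its day, as the root mean square difference over genes. This distance was 0.687, 0.532, 0.538 and 0.509 log2 units for day 10 replicates 1 to 4. It was 0.845, 1.33, 1.06 and 0.848 for day 18 replicates 1 to 4. All 4 day 18 libraries were farther from their own day than any day 10 library, with means of 1.02 ± 0.230 and 0.566 ± 0.0812 (SD, n = 4). The two-sided exact permutation p of 0.0286 is the smallest that 4 against 4 can give. Adjusted over the 8 library measures it was 0.114, which does not pass. The 4 distances of a day are not independent, as each library enters the mean for the other 3, and the p does not allow for this.

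Seen gene by gene, the median standard deviation over the 4 animals was 0.28 on the log2 scale on day 10 and 0.51 on day 18. It was larger on day 18 for 13496 of the 16331 genes, or 82.6%. The share was 78.7% in the third of genes with the lowest mean level and 85.3% in the third with the highest, so the wider spread was not limited to genes with few reads. The coefficient of biological variation estimated by edgeR over all genes was 0.290 on day 10 and 0.571 on day 18. It fell to 0.475 when day 18 replicate 2 was left out, and was 0.546 to 0.608 when any other day 18 library was left out. With 1 day 10 library left out it ran from 0.244 to 0.309, below each of these. On days 5 and 14, outside this comparison, the coefficient was 0.495 and 0.335.

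Of the day 18 libraries, replicate 2 stood farthest from day 10. It had 2108 genes at least 4-fold from the day 10 mean, of which 813 were above it and 1295 below. Replicates 1, 3 and 4 had 386, 526 and 836 such genes. Day 10 libraries set against the mean of the other 3 of that day had 311, 145, 156 and 130. Outside the compared days, day 5 replicate 3 had 2178 such genes and lay 1.36 log2 units from its own day. The first principal component of the 8 libraries, with 45.7% of their variance, placed day 18 replicate 2 at one end and the 4 day 10 libraries at the other. The second, with 18.9%, placed day 18 replicate 3 opposite replicates 1 and 4. By Pearson correlation of log2 CPM across genes, no day 18 library was closest to another of its own day. Replicate 1 was closest to day 14 replicate 3 (0.967), replicate 2 to day 5 replicate 2 (0.891), replicate 3 to day 5 replicate 4 (0.978) and replicate 4 to day 14 replicate 1 (0.953). The highest correlations of replicates 1 to 4 within day 18 were 0.948, 0.878, 0.914 and 0.948. Of the day 10 libraries, replicates 2, 3 and 4 were closest to one of their own day, and replicate 1 to day 14 replicate 3. The day of each library is that of its label throughout. The 100 most abundant genes of each library took 27.3% of its gene reads in replicate 2, 14.5% to 19.9% in the other day 18 libraries and 15.6% to 18.8% on day 10. The part that library composition has in the differences between the days was not tested.

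**Figure D1:**
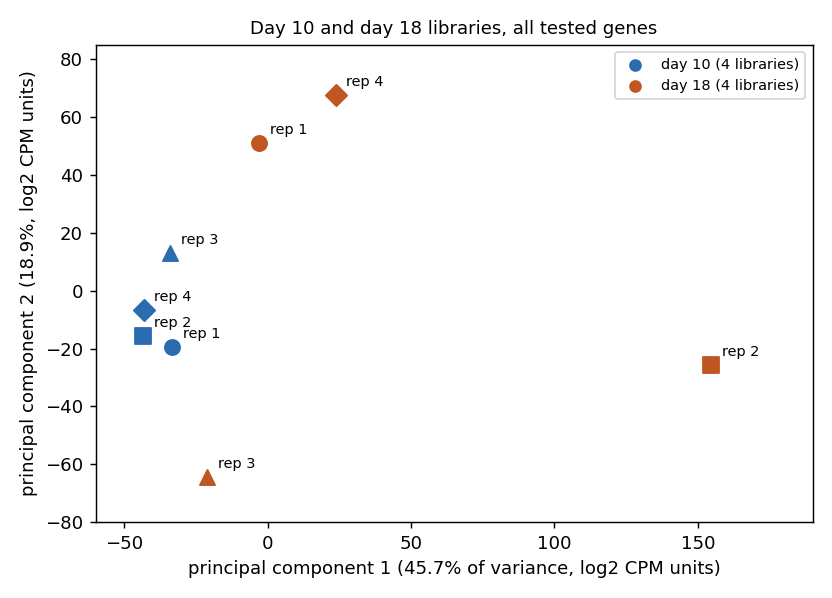
First 2 principal components of log2 CPM over the tested genes, in log2 CPM units, for the 4 day 10 libraries (blue) and the 4 day 18 libraries (orange), with the replicate number beside each point. The day 10 points lie together, while day 18 replicate 2 lies alone on the first component and replicate 3 lies apart from replicates 1 and 4 on the second.

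The comparison of the days over all genes gave a short list in which most genes were lower on day 18, a balance that 3 of 31 alternatives turned. With edgeR's quasi-likelihood test on all 4 days of the series and an adjusted p under 0.05, 4 genes rose from day 10 to day 18 and 12 fell. These 16 are 0.098% of the genes tested, 0.0245% risen and 0.0735% fallen. The 4 risen genes were 1.65-fold to 6.88-fold higher on day 18, and 2 of them were at least 2-fold higher. The 12 fallen genes were 1.71-fold to 41.0-fold lower, and 11 of them at least 2-fold. Adjusted p ran from 0.00440 to 0.0469 among the 16, and the next gene stood at 0.0675. Calls were more often higher than lower with DESeq2 (505 to 267), and with edgeR without day 18 replicate 3 (136 to 116) or replicate 1 (19 to 17). At an adjusted p under 0.1 there were 32 genes, 8 higher and 24 lower. At 0.05, an edgeR fit of only the libraries of days 10 and 18 called 0 higher and 4 lower.

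Most fallen genes had many reads, a measure that also depends on gene length. Of the 12, 9 were in the third of tested genes with the highest mean CPM and 2 in the lowest, and their median level went from 174 CPM on day 10 to 55.2 CPM on day 18. Together they took 0.422% to 0.719% of the gene reads of a day 10 library and 0.0975% to 0.131% of a day 18 library. This sum leans on the most abundant of them, which had a mean of 2686 CPM on day 10 and 351 CPM on day 18. The 4 risen genes took 0.00834% to 0.00964% on day 10 and 0.0169% to 0.0187% on day 18. These sums are over genes chosen by the same test and describe its result.

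**Figure D2:**
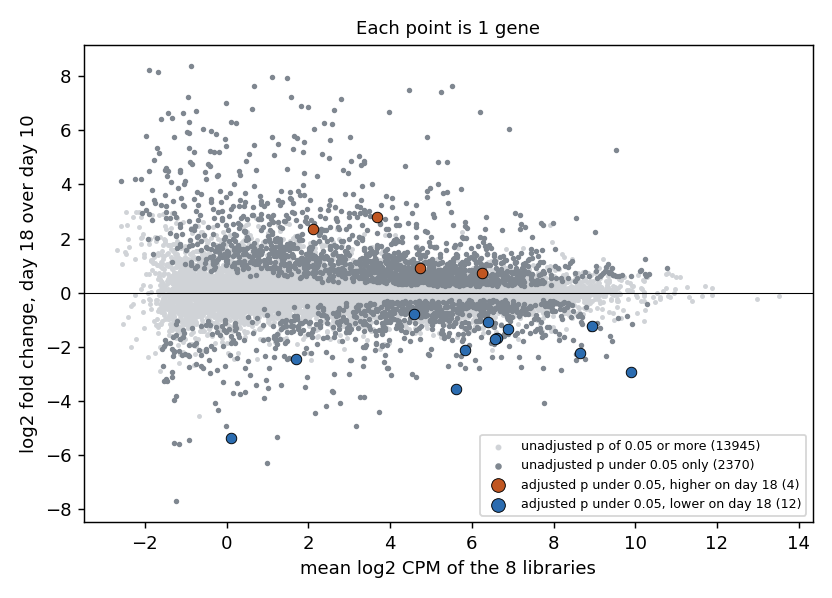
Fitted log2 fold change of day 18 over day 10 (vertical axis) against the mean log2 CPM of the 8 libraries (horizontal axis), 1 point per tested gene. The 4 risen genes (orange) and 12 fallen genes (blue) lie among many uncalled genes with differences as large or larger, in dark grey where the unadjusted p was under 0.05.

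ENSBTAG00000030974 was the called gene with the largest rise. It was at 3.29, 4.92, 8.52 and 4.81 CPM in day 10 replicates 1 to 4 and at 35.4, 70.4, 26.0 and 16.5 CPM in day 18 replicates 1 to 4. Every day 18 library was above every day 10 library, and replicate 2 was the highest. The means were 5.38 CPM ± 2.22 and 37.1 CPM ± 23.5 (SD, n = 4). On the log2 scale the change was 2.78 ± 0.44 (SE), with an adjusted p of 0.0374 by edgeR. Without day 18 replicate 2 the log2 fold change was 2.25, with an adjusted p of 0.0547 by edgeR. Leaving out a single library also ended the call for replicates 1 and 2 of day 5, replicates 1, 2 and 4 of day 10 and replicate 1 of day 14, with adjusted p from 0.0514 to 0.164. On day 5 this gene was at 11.0 to 26.1 CPM and on day 14 at 5.99 to 9.30 CPM, so days 10 and 14 were its low point and their libraries overlapped.

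ENSBTAG00000008333 rose more evenly. Its levels were 2.02, 1.07, 3.07 and 1.60 CPM in the day 10 libraries, from 24 to 63 reads each, and 8.61, 8.16, 11.5 and 11.1 CPM in the day 18 libraries, from 141 to 257 reads each. The lowest day 18 library was above the highest day 10 library, and replicate 2 was the lowest of its day here. The log2 fold change was 2.34 ± 0.38 (SE), with an adjusted p of 0.0423 by edgeR, from 1.94 CPM ± 0.845 to 9.84 CPM ± 1.69 (SD, n = 4). The call ended, with adjusted p by edgeR from 0.0537 to 0.164, on leaving out any of replicates 2 and 4 of day 5, 1, 2 and 4 of day 10, 1, 3 and 4 of day 14 or 2 and 4 of day 18. On day 14 it was at 4.28 to 5.83 CPM, between the days and overlapping neither. On day 5 it ranged from 3.08 to 9.54 CPM.

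ENSBTAG00000002205 had the largest fall among the called genes. It was at 9.39, 3.53, 1.75 and 10.7 CPM in day 10 replicates 1 to 4, from 200, 79, 36 and 228 reads. In day 18 replicates 1 to 4 it had 1, 5, 5 and 1 reads, or 0.0456 to 0.289 CPM. The days did not overlap, though day 10 itself spanned a wide range. The means were 6.36 CPM ± 4.39 and 0.152 CPM ± 0.124 (SD, n = 4), and edgeR put the log2 fold change at -5.36 ± 0.90 (SE), with an adjusted p of 0.0456. The adjusted p was 0.0551 to 0.164 when any of replicates 1, 2 and 4 of days 5, 10 or 18 or replicates 1 and 2 of day 14 was left out. Its reads were also few on day 5, from 2 to 5 per library, and on day 14, from 0 to 9. Day 10 was thus the 1 day of the 4 on which this gene had more than a few reads in each library.

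ENSBTAG00000007125 fell in all 4 day 18 libraries. It was at 129, 213, 166 and 185 CPM in the day 10 libraries and at 11.8, 24.1, 14.8 and 8.47 CPM in the day 18 libraries. The highest day 18 library was more than 2-fold below the lowest day 10 library. The log2 fold change was -3.55 ± 0.55 (SE), with an adjusted p of 0.0374 by edgeR, from 173 CPM ± 35.2 to 14.8 CPM ± 6.72 (SD, n = 4). The adjusted p was 0.0529 to 0.110 when any of replicates 1 and 4 of day 5, 2, 3 and 4 of day 10, 1 of day 14 or 2 and 4 of day 18 was left out. On day 14 its libraries spread from 24.6 to 155 CPM, from just above the highest day 18 library into the range of day 10. On day 5 they lay at 9.94 to 44.4 CPM.

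**Figure D3:**
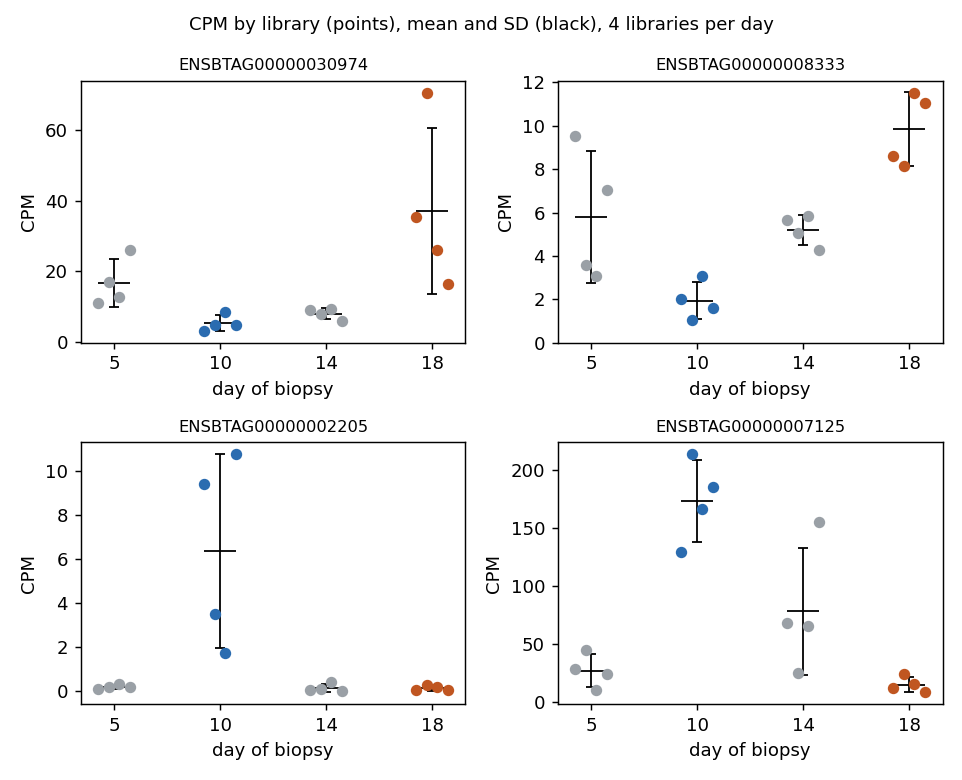
CPM of the 4 genes named, by day of biopsy, with 1 point per library and the mean and SD of 4 libraries in black (day 10 blue, day 18 orange, days 5 and 14 grey). Both genes in the upper row are highest on day 18 and lowest on day 10, and both in the lower row are highest on day 10, where ENSBTAG00000002205 is near 0 on the other 3 days.

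The 16 called genes shared a course over the 4 days that the test did not ask for. All 12 fallen genes had their highest mean on day 10, and all 4 risen genes had their lowest mean on day 10 and their highest on day 18. The day 5 mean was nearer to day 18 than to day 10 for all 16. For 15 of them the 4 day 5 libraries and the 4 day 10 libraries did not overlap. The day 14 mean lay between days 10 and 18 for 15 of the 16, and it was nearer to day 10 for 10 and nearer to day 18 for 6. The day 14 and day 10 libraries did not overlap for only 6 of the 16. Day 10 thus had the highest or lowest mean in all 16, but was set apart from day 14 in few of them. None of these counts was made over all tested genes. Whether other genes share this course was not tested. Because the genes were chosen for a difference between days 10 and 18, and day 10 serves in each of these comparisons, the counts describe the genes and were given no test.

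The 4 day 18 libraries were alike in the medians of the called genes and differed more in single genes. Against the day 10 mean the median of the 12 fallen genes was -1.62, -1.91, -1.87 and -1.51 on the log2 scale in day 18 replicates 1 to 4. The median of the 4 risen genes was 1.499, 1.550, 1.637 and 1.315. Single genes spread wider. ENSBTAG00000030974 ran from 1.69 in replicate 4 to 3.77 in replicate 2, and ENSBTAG00000007125 from -4.31 in replicate 4 to -2.82 in replicate 2. ENSBTAG00000002205 ran from -5.17 in replicate 1 to -3.73 in replicate 2, on only 1 to 5 reads per day 18 library. None of the 16 overlapped between the days, where 6.63% of all tested genes did not overlap, 3.58% higher and 3.06% lower on day 18. A test that divides by the spread within days favours genes of this kind, so the separation describes the calls and is no independent result.

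**Figure D4:**
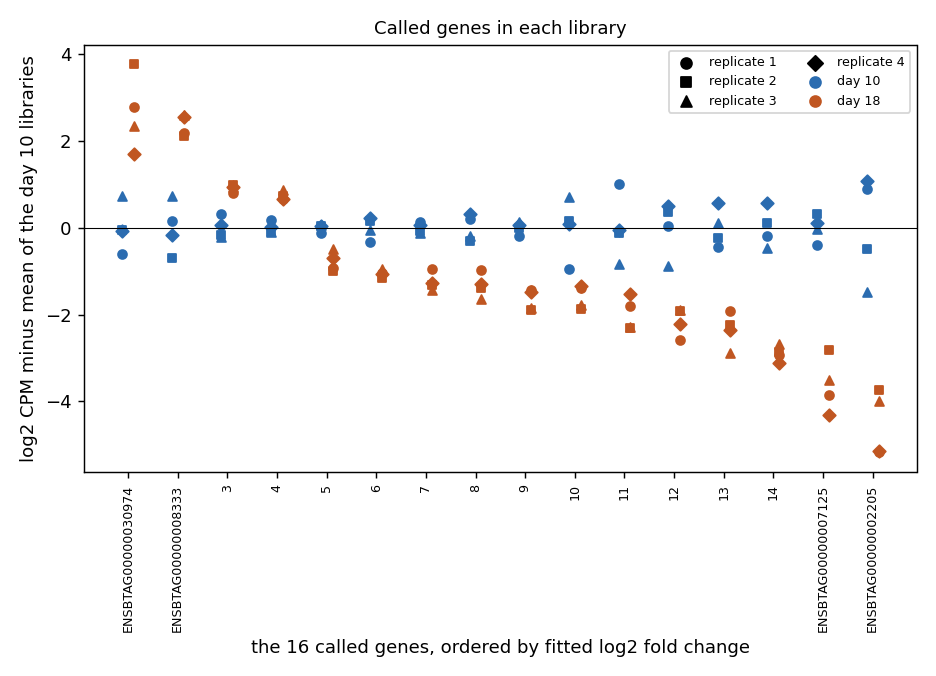
Log2 CPM minus the mean of the day 10 libraries (vertical axis) for the 16 called genes in order of fitted fold change (horizontal axis), with day 10 libraries in blue and day 18 libraries in orange and a marker shape per replicate number. In each gene the 4 orange points lie on one side of the 4 blue points. They lie farthest from each other for 3 of the genes with a name on the axis. For ENSBTAG00000030974 replicate 2 is highest, and for ENSBTAG00000007125 it is nearest to day 10. For ENSBTAG00000002205, with only 1 to 5 reads per day 18 library, replicates 2 and 3 are nearest to day 10.

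Genes with the largest fitted differences looked different from the called ones. A fitted difference of at least 16-fold was found for 104 genes higher on day 18, of which 0 passed the adjusted threshold with edgeR, although all 104 had an unadjusted p under 0.05. The smallest adjusted p among them was 0.120. Day 18 replicate 2 was the highest library of its day for 91 of the 104, and for 82 it was at least 4-fold above the next. The 104 were chosen by a difference that includes replicate 2, so these counts describe them and are no independent result. The median level of the 104 genes was 51.7 CPM in replicate 2, 0.706, 1.10 and 6.51 CPM in replicates 1, 3 and 4, and 0.236 to 0.493 CPM in the day 10 libraries. With replicate 2 left out, 29 genes were at least 16-fold higher. In the other direction 17 genes were at least 16-fold lower on day 18, 1 of them called. That number was 19 without replicate 2, 72 without replicate 3 and 97 without both, when 38 were at least 16-fold higher. Most alternatives had more higher than lower genes at this size, DESeq2 with 104 and 18 among them. Limma-voom with library weights had 11 higher and 36 lower. A fit of only days 10 and 18 with the replicate number as a block had 17 and 30. The cause of this turn was not tested.

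Day 18 replicate 2 was also the most extreme library for most genes with an unadjusted p under 0.05. There were 2386 of these, 14.6% of those tested, of which 1603 (9.82%) were higher and 783 (4.79%) lower on day 18, the opposite balance to the called genes. Replicate 2 was the highest day 18 library for 67.2% of the 1603, against 29.5% of all tested genes. It was the lowest for 56.1% of the 783, against 32.7% of all tested genes. Replicate 2 enters the fit that chose these genes, and the shares over all tested genes do not remove that choice. The shares describe the genes and are no independent result. The median difference of the 1603 genes from the day 10 mean was 1.43 on the log2 scale in replicate 2, and 0.45, 0.46 and 0.69 in replicates 1, 3 and 4. Without replicate 2 the counts were 938 higher and 702 lower, and without replicate 3 they were 1792 and 1296. Without both they were 1194 and 1078, and with limma-voom and library weights 1092 and 1030. More were higher than lower in 30 of 31 alternatives, so the direction of the balance held better than its size. In the edgeR fit of all libraries, the tested genes were split in 3 by mean level. More were higher than lower in every class, 549 to 207 in the lowest, 561 to 259 in the middle and 493 to 317 in the highest.

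Few genes came close to being present on 1 day and absent on the other. Of all 27607 IDs, 0 had at least 10 reads in each library of one day and 0 reads in all 4 libraries of the other. With up to 3 reads allowed in each library of the second day, 1 gene qualified for day 10 and 0 for day 18.

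The number of called genes depended on single libraries, those of days 5 and 14 included, which enter the same fit. Leaving out a library also changed the genes tested and the scaling, and which of these moved the number was not tested. Leaving out day 18 replicates 1 to 4 singly gave 36, 3, 252 and 5 genes, and leaving out day 10 replicates 1 to 4 gave 11, 4, 9 and 3. The same for day 5 gave 5, 5, 47 and 6, and for day 14 it gave 4, 15, 12 and 11. When day 18 replicates 2 and 3 were both left out edgeR called 0 genes, with 2272 at an unadjusted p under 0.05. When day 5 replicate 3 was left out with them it called 301, of which 118 were higher and 183 lower. DESeq2 called 505 higher genes (3.09% of those tested) and 267 lower (1.63%), together 4.73%. Limma-voom with library weights called 6 higher (0.0367%) and 22 lower (0.135%), together 0.171%. All 16 genes called by edgeR were among the 772 of DESeq2, and 12 were among the 28 of limma-voom. Each of the 16 kept its direction in every alternative that tested it.

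**Figure D5:**
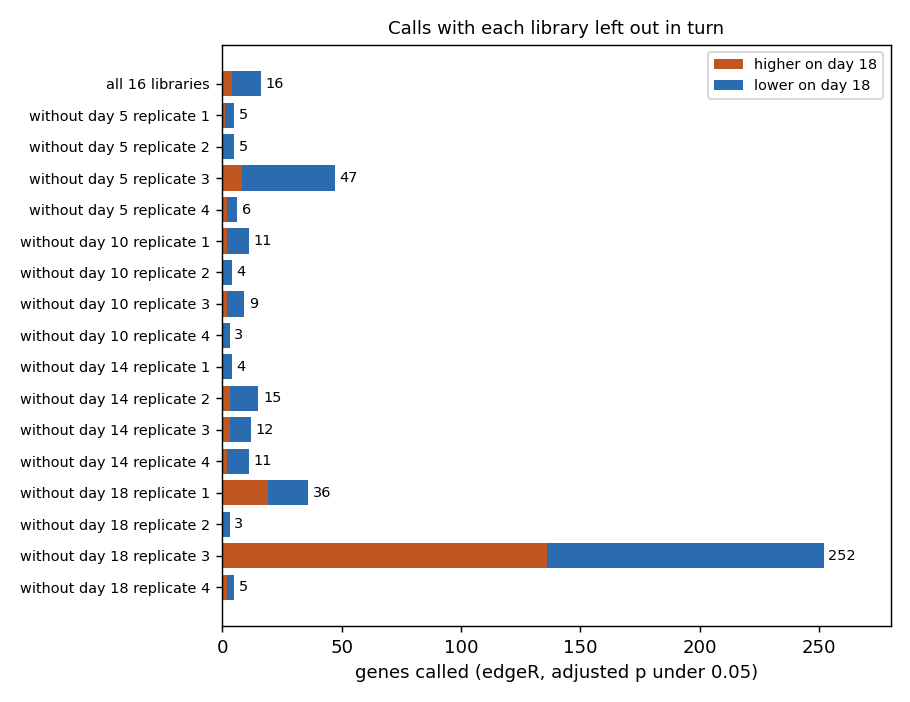
Genes called by edgeR for day 18 against day 10 (horizontal axis, number of genes; orange higher and blue lower on day 18) with all 16 libraries and with each library left out in turn. The number runs from 3, without day 10 replicate 4 or day 18 replicate 2, to 252, without day 18 replicate 3.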

How the data were processed

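For each library the authors deposited a table of raw counts by gene, unstranded and for both strands. The submitters' processing notes name FastQC, STAR and edgeR without versions, while the genome build and its annotation were not given in the sources used here. The 4 summary lines that name no gene stayed out of library sizes and tests. The deposited count of multimapping reads is 0 throughout, so values of near-identical genes are uncertain. The stranded column with most reads was used.

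Genes were filtered with filterByExpr, scaled by TMM and tested with edgeR's robust quasi-likelihood fit of all 4 days together. The contrast of days 18 and 10 was adjusted by Benjamini-Hochberg at 0.05. Log2 CPM used a prior count of 2, and an SE is the log2 fold change divided by the square root of F. The procedure was tested on data simulated with the same spread per gene on every day. Such data lack the wider spread of day 18, so that test does not cover it. Alternatives varied scaling, filter, strand, robust estimation, tool, replicate block, days in the fit and libraries left out. Tests ran in R 4.3.3 with DESeq2 1.42.0, limma 3.58.1 and edgeR 4.0.16. Permutations and figures used SciPy 1.17.1, Matplotlib 3.10.9, pandas 2.3.3 and NumPy 2.4.6 under Python 3.11.15. Libraries of the same day all differed by more than sampling noise (chi-square per degree of freedom of 38.3 or more).

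Libraries, lists and the naming rule (2 risen and 2 fallen called IDs by size of change) were chosen with earlier results of these data known. The 16 gene lists and 12 marker lists could not be used without symbols. The labels give 1 animal per library and no batch or date.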

Additional observations from a re-analysis of the deposited data

Results flagged for a closer look

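Among 30 groups of 4 libraries examined, where chance alone sets apart about 1 in 20, or 1.5, day 10 replicate 1 stood apart from the other 3 of its day in 2 measures. Its distance from the mean of its day was 0.687 log2 units, against 0.509 to 0.538, and its mean correlation with the other day 10 libraries was 0.958, against 0.968 to 0.969. Both measures rest on the same log2 CPM values. Apart from the unmapped reads given above, 2 kinds of reads left unused in the comparison were flagged. A median of 1.54% of stranded gene reads, from 1.35% to 1.72%, lay on the other strand, and a median of 30.1% of counted reads, from 24.6% to 30.7%, had no gene feature.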

How the results depend on the processing

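Each of 31 alternatives was set against the 16 genes called. The count was 7 without a filter beyond 1 read, 4 in a fit of only days 10 and 18, 28 with limma-voom and 772 with DESeq2. All 4 genes called with only days 10 and 18 were lower on day 18. Adjusted p by edgeR in that fit was 0.252 for ENSBTAG00000030974 and 0.158 for both ENSBTAG00000008333 and ENSBTAG00000002205. For ENSBTAG00000007125 it was 0.0228. It was 301 without day 5 replicate 3 and day 18 replicates 2 and 3. Both alternatives chosen after seeing the data gave 0 (day 18 replicates 2 and 3 left out) and 44 (only day 10 with day 18 replicates 1 and 4). With 1 library left out it ran from 3 to 252. The replicate number as a block gave 1 gene over all 4 days and 0 in a fit of only days 10 and 18, where 971 genes had an unadjusted p under 0.05 (374 higher, 597 lower). In the other 30 alternatives that number stayed within 1.5 times of 2386, from 1640 to 3088 with 1 library left out. In the remaining 5 settings and without day 5 replicate 3 and day 18 replicate 2 the count of 16 stayed within 1.5 times. Numbers are not said to pair animals: deviations of same-numbered libraries correlated at -0.28 to -0.093, and 0 of 4 libraries correlated best with their own number. ENSBTAG00000007125 missed the threshold in 11 of 31 alternatives, ENSBTAG00000030974 in 12 and ENSBTAG00000008333 in 16, with adjusted p by edgeR of up to 0.276, 0.737 and 0.737. ENSBTAG00000002205 missed it in 19 of 30, up to 0.737, and the stricter filter removed it. These 4 were named by size of change, and other called genes held more or less often. Across all 16, the alternatives in which a gene missed the threshold ran from 2, for a gene 7.65-fold lower on day 18, to 22. Medians of gene lists were not run for want of symbols. More genes fell than rose in 26 alternatives, fewer in 3 and 2 were tied. The cause of these changes was not tested. Reads limit the lowest genes: ENSBTAG00000002205 rests on 12 reads on day 18.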
